A study of Mus musculus with 9 samples.

Results

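The replication-dependent histone genes of mouse embryonic stem cells are described here across 3 culture media. Members were all genes whose symbol begins with Hist1h, Hist2h, Hist3h or Hist4h, which gave 69 of the 24819 genes in the table. They comprised 6 linker histone H1 genes, 19 H2A, 19 H2B, 12 H3 and 13 H4 genes. By symbol, 55 members belong to Hist1, 10 to Hist2, 3 to Hist3 and 1 to Hist4. Of these, Hist1h2al and Hist3h2bb-ps are annotated as pseudogenes in GENCODE.

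The cells were E14, a single established mouse embryonic stem cell line, in a series on expanded potency. One group was kept in EPSCM, an expanded potential stem cell medium, a second in 2iLIF, a defined N2B27 medium with 2 kinase inhibitors and the cytokine LIF, and the third in ES medium, which contains serum and LIF, with 3 libraries in each group. Cell lines of the study grew on gelatin. Whether replicate libraries stem from separate cultures is not stated in the labels, and p-values then reflect library-to-library spread alone, which may be technical.

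Replication-dependent histone genes supply the core histones H2A, H2B, H3 and H4 and the linker histone H1 that package newly copied DNA, and cells express them mainly in S phase. Their messenger RNAs are unusual in ending in a short stem-loop, bound by the protein SLBP, in place of a poly(A) tail. Some members are also known to give transcripts with a poly(A) tail, above all in differentiated cells. The libraries were made with a kit that selects messenger RNA by its poly(A) tail, so the values report the histone RNA that such a library retains, and not the total histone RNA of the cells.

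The stem-loop sequences are shown because they define how these RNAs end. The letters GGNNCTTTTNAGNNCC, in the sense of the RNA, were found in GENCODE transcripts (GRCm38, used for sequence only) of 44 of the 69 members, against 78 of 141690 transcripts of other genes (0.0550%). For 7 of the more abundant members that hold it, with at least 1 of each class, the site reads as follows, with the 16 bases of the stem-loop in capitals. All lie on chromosome 13 except Hist3h2a and Hist3h2ba, which lie on chromosome 11.
Hist1h1c: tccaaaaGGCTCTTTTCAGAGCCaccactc
Hist3h2a: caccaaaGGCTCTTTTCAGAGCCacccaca
Hist1h2ae: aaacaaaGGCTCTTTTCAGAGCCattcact
Hist3h2ba: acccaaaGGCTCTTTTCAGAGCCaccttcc
Hist1h3c: aaaaaaaGGCTCTTTTAAGAGCCacctaag
Hist1h4i: acttaaaGGCCCTTTTTAGGGCCaccacaa
Hist1h4h: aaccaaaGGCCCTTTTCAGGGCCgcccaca
One version, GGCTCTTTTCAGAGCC, was shared by 26 members of the classes H1, H2A, H2B and H3. The version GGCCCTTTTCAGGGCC was found in 7 members, all of class H4. The most abundant member, Hist1h2bc, had no such sequence in its annotated transcript, which says only that these letters are not in that annotation.

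Summed over the 69 members, FPKM (fragments scaled to transcript length and to the library total) was 26.2, 39.5 and 29.9 in the EPSCM libraries, 56.0, 44.5 and 60.6 in the 2iLIF libraries, and 186, 135 and 201 in the ES libraries (replicates 1 to 3 of each). The 3 media did not overlap. The mean sum was 31.9 ± 6.88 FPKM in EPSCM, 53.7 ± 8.30 FPKM in 2iLIF and 174 ± 34.9 FPKM in ES (SD, n = 3 each). The EPSCM sum was thus 18.3% of the ES sum and 59.4% of the 2iLIF sum, and the 2iLIF sum was 30.9% of the ES sum. In bulk RNA, fewer cells in S phase, less histone RNA per cell and a smaller part of it retained by the poly(A) selection cannot be told apart. The members made up 0.00473% to 0.00677% of the summed FPKM of an EPSCM library, 0.00812% to 0.0111% of a 2iLIF library and 0.0235% to 0.0355% of an ES library.

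**Figure D1:**
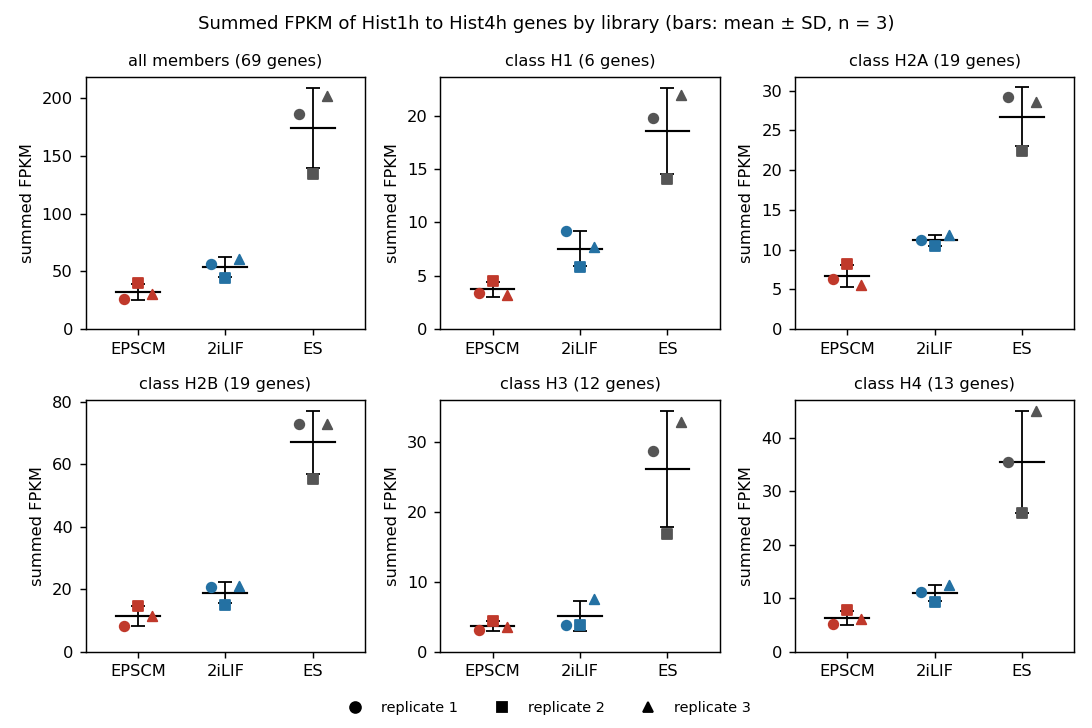
Summed FPKM (vertical axis, linear, from 0) of all 69 members and of each histone class in EPSCM, 2iLIF and ES medium; points are libraries, marked by replicate, and bars give the mean and SD of 3 libraries. In every panel all 3 ES libraries lie above all EPSCM and 2iLIF libraries, while EPSCM and 2iLIF overlap for class H3.

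All 5 classes were lowest on average in EPSCM and highest in ES. The EPSCM sum was 20.0% of the ES sum for H1, 25.1% for H2A, 17.1% for H2B, 14.0% for H3 and 17.9% for H4. Between 2iLIF and ES the classes stood further apart, with 40.6% for H1, 41.8% for H2A, 28.3% for H2B, 19.4% for H3 and 30.8% for H4. Linker histone H1 therefore held 11.7% ± 1.19 of all member FPKM in EPSCM, 14.0% ± 2.03 in 2iLIF and 10.6% ± 0.227 in ES, and H2A held 21.2% ± 2.84, 21.0% ± 2.07 and 15.5% ± 1.25 in the same order (SD, n = 3 each). Core histone H3 held 11.5% ± 0.376 in EPSCM, 9.30% ± 2.85 in 2iLIF and 14.7% ± 2.00 in ES. The H1 and H2A values rest largely on a single abundant gene each, and so need not hold for the whole class. Hist1h1c gave 5.62 of 7.55 FPKM of H1 in 2iLIF and 10.9 of 18.6 FPKM in ES (means). Hist3h2a gave 7.68 of 11.2 FPKM of H2A in 2iLIF and 9.83 of 26.7 FPKM in ES.

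Member by member, the ES mean was the highest of the 3 media for 68 of 69 genes, with Hist2h2aa2, singled out after its values were seen, as the exception. The order ES, 2iLIF, EPSCM held for 47 members and the order ES, EPSCM, 2iLIF for 16. In all 3 libraries of a medium, 5 members reached 1 FPKM in EPSCM, 6 in 2iLIF and 34 in ES. The like counts over all genes were not made, so these counts have no share to stand beside.

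Single genes were tested with limma on log2(FPKM + 1), a scale that understates the change of low genes, for the 12330 genes that reached 1 FPKM in 3 or more libraries. This kept 35 members: 4 of H1, 5 of H2A, 11 of H2B, 8 of H3 and 7 of H4. Of the 35, 27 would not have reached the minimum without the ES libraries, where their means were highest, which limits what a count over the 35 can show. The 8 that reached it without them were Hist1h1c, Hist1h2bc, Hist1h3c, Hist1h4d, Hist1h4h, Hist1h4i, Hist3h2a and Hist3h2ba. A gene was called where the adjusted p was under 0.05 and its log2 difference reached 1 in either direction.

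In EPSCM against ES, 32 of the 35 tested members were called lower and 0 higher, where 7.97% of all tested genes were called lower and 11.7% higher. Every one of the 35 had all EPSCM libraries below all ES libraries, as did 32.1% of all tested genes, while 42% had the reverse. Of the 8 members that reached the minimum without the ES libraries, 7 were called lower. The median difference was -1.40 over the tested members and 0.09 over all tested genes. The members not called were Hist1h1a, Hist1h3a and Hist3h2ba, each with a difference between -1 and 0. Against ES, no tested member was higher in EPSCM or 2iLIF even at an unadjusted p under 0.05 by limma.

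In 2iLIF against ES, 27 of the 35 were called lower and 0 higher, where 7.12% of all tested genes were called lower and 7.62% higher. The 8 not called were Hist1h1a, Hist1h1c, Hist1h2ab, Hist1h2ak, Hist1h3e, Hist1h4a, Hist1h4h and Hist3h2a. All 11 tested H2B genes and 7 of 8 H3 genes were called, against 2 of 4 H1 and 2 of 5 H2A genes. Since 27 of the 35 needed the ES libraries to reach the minimum, these counts are no test of a class difference. Hist1h3e (-0.99), Hist1h2ab (-0.96) and Hist1h2ak (-0.95) fell just short of the size limit. Of the 8 members that reached the minimum without the ES libraries, 5 were called lower. The comparisons of EPSCM and of 2iLIF with ES share the ES libraries and are not independent of each other.

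In EPSCM against 2iLIF, 1 of the 35 tested members was called lower (Hist1h2bc) and 0 higher, where 5.91% of all tested genes were called lower and 10.1% higher. By the limma adjusted p alone, without a limit on size, 6 members were lower in EPSCM and 1 was higher. By that rule 31.4% of all tested genes were lower and 36.6% higher. Most members thus did not pass the test between these media, which does not show that their levels were equal. Taken over all 3 media at once, the limma F test gave an adjusted p under 0.05 for 35 of 35 members, but also for 85.5% of all tested genes.

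**Figure D2:**
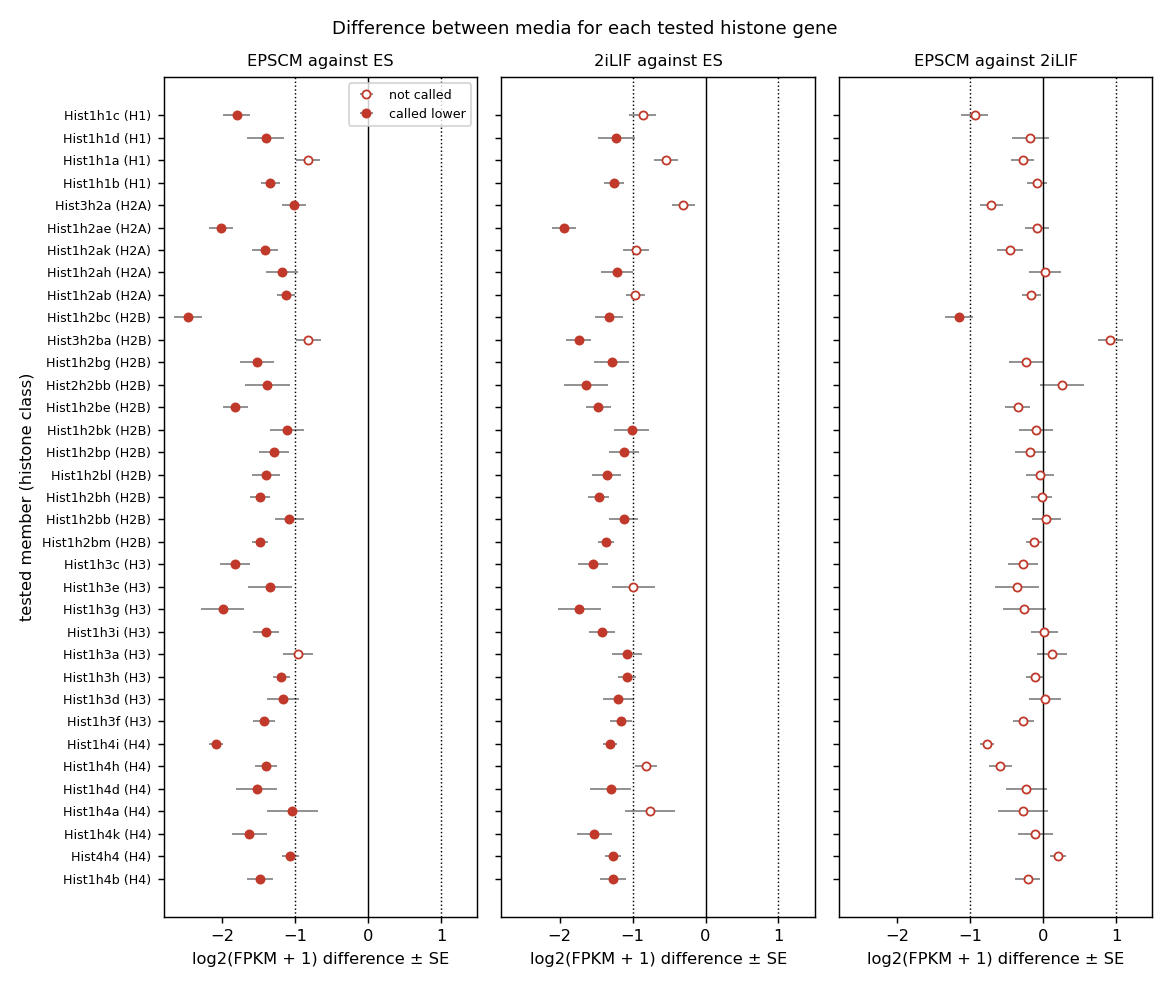
Difference in log2(FPKM + 1) with its standard error for each of the 35 tested members (rows, by class) in EPSCM against ES, 2iLIF against ES and EPSCM against 2iLIF; filled points were called lower, open points were not called, and dotted lines mark a difference of 1 in size. Against ES every point lies left of 0, while for EPSCM against 2iLIF most lie near 0, with Hist1h2bc at -1.15 and Hist3h2ba at 0.92 as the extremes.

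Among the H1 genes, whose products bind the linker DNA between nucleosomes, Hist1h1c held most of the signal. Hist1h1c had 2.08, 2.84 and 2.29 FPKM in EPSCM, 7.36, 4.19 and 5.31 FPKM in 2iLIF and 12.8, 8.95 and 10.9 FPKM in ES. The 3 media did not overlap for this gene. It fell by 1.80 ± 0.18 (log2 scale, SE) in EPSCM against ES (limma adjusted p = 2.07e-05). Against 2iLIF, the EPSCM libraries were lower by a log2 difference of -0.94 ± 0.18 (limma adjusted p = 0.00154), short of the size limit.

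The other tested H1 genes were low in every medium. Hist1h1d averaged 0.333 ± 0.254 FPKM in EPSCM, 0.524 ± 0.427 FPKM in 2iLIF and 2.58 ± 1.06 FPKM in ES, and Hist1h1b averaged 0.175 ± 0.0736, 0.243 ± 0.0842 and 2.01 ± 0.649 FPKM in the same order (SD, n = 3 each). Both fell in EPSCM against ES, with log2 differences of -1.40 and -1.34. Hist1h1a had 0.506, 0.904 and 0.365 FPKM in EPSCM, 0.961, 0.904 and 0.872 FPKM in 2iLIF and 1.57, 1.37 and 2.56 FPKM in ES. All its ES libraries stood above the rest, yet the log2 difference of EPSCM against ES was -0.82 ± 0.16 (limma adjusted p = 0.00141), below the size limit.

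H2A pairs with H2B in the nucleosome. Hist3h2a, a lone H2A gene of the small Hist3 cluster, was the most abundant H2A member, with 4.26, 5.09 and 3.62 FPKM in EPSCM, 8.33, 8.07 and 6.65 FPKM in 2iLIF and 12.3, 7.86 and 9.32 FPKM in ES. EPSCM lay below the other media, while 2iLIF and ES overlapped. It fell by 1.01 ± 0.16 on the log2 scale in EPSCM against ES (limma adjusted p = 0.000365), at the edge of the size limit, and was no longer called without ES replicate 1 (-0.85) or without EPSCM replicate 3 (-0.92). In 2iLIF against ES its difference was -0.30 ± 0.16 (limma adjusted p = 0.124), the smallest of the 35.

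Hist1h2ae, an H2A gene of the large Hist1 cluster, differed from Hist3h2a in its 2iLIF level. It had 0.845, 1.27 and 0.714 FPKM in EPSCM, 0.909, 0.780 and 1.51 FPKM in 2iLIF and 8.37, 6.15 and 6.12 FPKM in ES. EPSCM and 2iLIF overlapped, and both lay far below ES. The gene fell by 2.02 ± 0.17 in EPSCM against ES (limma adjusted p = 4.94e-06) and by 1.94 ± 0.17 in 2iLIF against ES (limma adjusted p = 8.47e-06). Hist1h2ak averaged 0.133 ± 0.122 FPKM in EPSCM, 0.571 ± 0.335 FPKM in 2iLIF and 2.04 ± 0.620 FPKM in ES, and Hist1h2ah averaged 0.255 ± 0.147, 0.232 ± 0.174 and 1.94 ± 1.04 FPKM in the same order (SD, n = 3 each). Both were called lower in EPSCM against ES, but Hist1h2ah was no longer called without ES replicate 3 (-0.91).

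The most abundant member of all was the H2B gene Hist1h2bc, with 3.81, 7.50 and 5.91 FPKM in EPSCM, 15.0, 11.7 and 14.2 FPKM in 2iLIF and 39.0, 31.7 and 35.6 FPKM in ES. The 3 media were fully separated. It fell by 2.47 ± 0.19 in EPSCM against ES (limma adjusted p = 3.63e-06) and by 1.32 ± 0.19 in 2iLIF against ES (limma adjusted p = 0.000267). The first was the largest difference of any tested member on the log2(FPKM + 1) scale, which understates the change of low genes. In FPKM, EPSCM stood at 16.2% of ES for Hist1h2bc, beside 18.3% for the sum of all members and 1.14% for Hist1h3f, the lowest of the tested members. Hist1h2bc also fell by 1.15 ± 0.19 in EPSCM against 2iLIF (limma adjusted p = 0.000608), a call that was lost without EPSCM replicate 1 (-0.92). Without this gene the summed FPKM of the members was 26.2 ± 5.17 in EPSCM, 40.1 ± 6.85 in 2iLIF and 139 ± 32.2 in ES (SD, n = 3 each).

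Hist3h2ba, an H2B gene, had the highest log2 difference of the 35 tested members in EPSCM against 2iLIF, where 27 of the 35 differences were below 0. It had 1.80, 2.47 and 1.43 FPKM in EPSCM, 0.547, 0.332 and 0.685 FPKM in 2iLIF and 4.81, 4.46 and 3.09 FPKM in ES. The 3 media were separated, with 2iLIF the lowest. No other member, of the 35 tested or of all 69, had all EPSCM libraries above all 2iLIF libraries. Over all tested genes 37.9% had that order. The reverse, all EPSCM libraries below all 2iLIF libraries, held for 7 of the 35 and 11 of the 69. Its share over all tested genes is not given here. It fell by 1.74 ± 0.17 in 2iLIF against ES (limma adjusted p = 1.86e-05). Its log2 difference was 0.92 ± 0.17 in EPSCM against 2iLIF (limma adjusted p = 0.00101) and -0.82 ± 0.17 in EPSCM against ES (limma adjusted p = 0.00185), both short of the size limit.

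In the mouse annotation, Hist3h2a and Hist3h2ba are near neighbours on chromosome 11, separated by Hist3h2bb-ps and Trim17. Their order of levels across the media nevertheless differed, since Hist3h2a was lower in EPSCM than in 2iLIF and Hist3h2ba was higher. Hist2h2bb, an H2B gene of the Hist2 cluster, had 0.386, 0.830 and 0.732 FPKM in EPSCM, 0.355, 0.112 and 0.687 FPKM in 2iLIF and 2.76, 1.88 and 6.14 FPKM in ES. The ES libraries stood apart from both other media, which overlapped. It fell by 1.38 ± 0.30 in EPSCM against ES and by 1.64 ± 0.30 in 2iLIF against ES (limma adjusted p = 0.0028 and 0.00118). Hist1h2bg averaged 0.540 ± 0.259 FPKM in EPSCM, 0.796 ± 0.0658 FPKM in 2iLIF and 3.58 ± 1.57 FPKM in ES (SD, n = 3 each) and was called lower in both comparisons with ES.

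**Figure D3:**
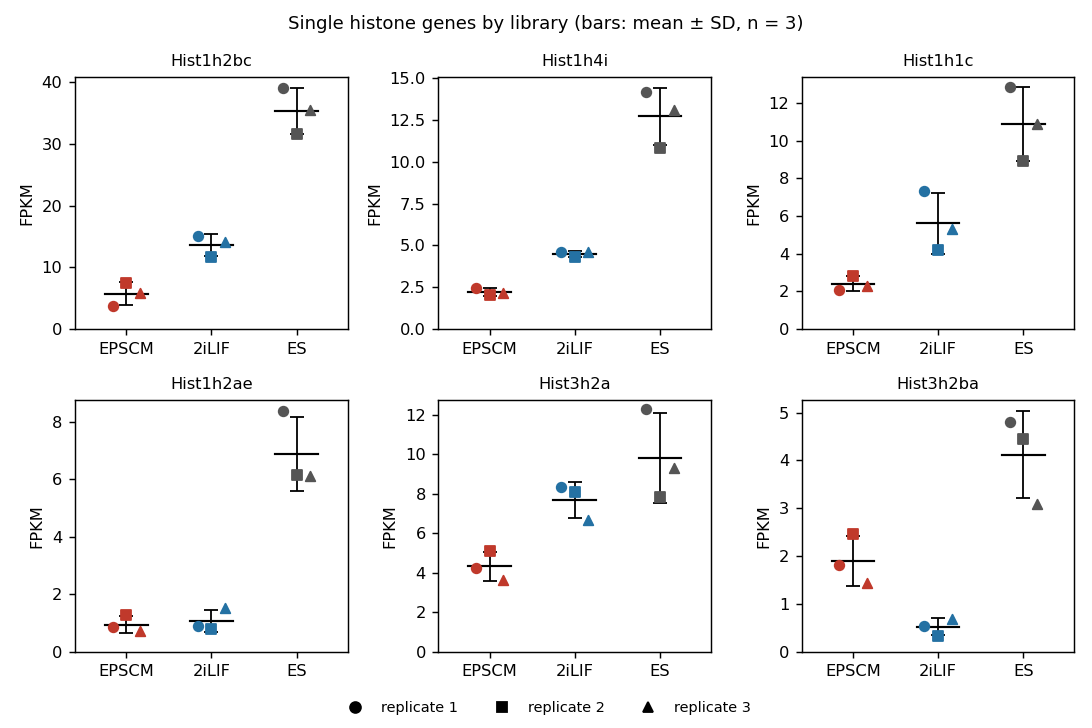
FPKM (vertical axes, linear, from 0) of 6 members in EPSCM, 2iLIF and ES medium; points are libraries, marked by replicate, and bars give the mean and SD of 3 libraries. Hist1h2bc, Hist1h4i and Hist1h1c are lowest in EPSCM and highest in ES, Hist1h2ae is low in both EPSCM and 2iLIF, Hist3h2a overlaps between 2iLIF and ES, and Hist3h2ba is lowest in 2iLIF.

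H3 and H4 form the tetramer at the core of the nucleosome. Hist1h3c, the most abundant H3 member, had 1.17, 1.02 and 0.875 FPKM in EPSCM, 0.964, 1.72 and 1.76 FPKM in 2iLIF and 7.29, 4.14 and 7.53 FPKM in ES. Hist1h3g had 0.856 and 0.262 FPKM in EPSCM replicates 2 and 3 and was listed at 0 in replicate 1, against 0.707, 0.381 and 0.704 FPKM in 2iLIF and 5.33, 2.39 and 5.87 FPKM in ES. For both genes EPSCM and 2iLIF overlapped and ES lay above them. Hist1h3c fell by 1.82 ± 0.20 and Hist1h3g by 1.99 ± 0.29 in EPSCM against ES (limma adjusted p = 3.89e-05 and 0.000233). In 2iLIF against ES they fell by 1.54 ± 0.20 and 1.73 ± 0.29 (limma adjusted p = 0.000146 and 0.000684).

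Hist1h3e averaged 0.730 ± 0.218 FPKM in EPSCM, 1.22 ± 0.328 FPKM in 2iLIF and 3.71 ± 2.05 FPKM in ES, and Hist1h3i averaged 0.305 ± 0.102, 0.323 ± 0.403 and 2.45 ± 0.329 FPKM in the same order (SD, n = 3 each). Both fell in EPSCM against ES, with log2 differences of -1.35 and -1.40. Hist1h3a, which was not called there, had 0.345, 0.679 and 0.603 FPKM in EPSCM, 0.176, 0.188 and 1.03 FPKM in 2iLIF and 2.20, 1.59 and 2.18 FPKM in ES. Its log2 difference of EPSCM against ES was -0.95 ± 0.21 (limma adjusted p = 0.00245), and it passed the size limit without EPSCM replicate 2 (-1.02) or without ES replicate 2 (-1.05).

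Among the H4 genes, Hist1h4i gave the closest replicates, with 2.47, 2.05 and 2.16 FPKM in EPSCM, 4.59, 4.30 and 4.58 FPKM in 2iLIF and 14.2, 10.8 and 13.1 FPKM in ES. No 2 media overlapped. It fell by 2.08 ± 0.10 in EPSCM against ES (limma adjusted p = 1.72e-07) and by 1.31 ± 0.10 in 2iLIF against ES (limma adjusted p = 3.38e-06). Its log2 difference in EPSCM against 2iLIF was -0.77 ± 0.10 (limma adjusted p = 0.000101).

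Hist1h4h followed the same order, with 0.736, 0.966 and 1.13 FPKM in EPSCM, 2.23, 1.73 and 1.79 FPKM in 2iLIF and 3.93, 3.19 and 5.45 FPKM in ES. The media did not overlap, and the log2 difference was -1.40 ± 0.15 in EPSCM against ES (limma adjusted p = 3.32e-05). Hist1h4d averaged 0.910 ± 0.681 FPKM in EPSCM, 1.15 ± 0.143 FPKM in 2iLIF and 4.53 ± 2.10 FPKM in ES (SD, n = 3 each) and was called lower in both comparisons with ES. Hist1h4a averaged 0.587 ± 0.306 FPKM in EPSCM, 0.947 ± 0.578 FPKM in 2iLIF and 2.48 ± 1.68 FPKM in ES (SD, n = 3 each). Its fall of 1.04 ± 0.34 in EPSCM against ES (limma adjusted p = 0.0225) was lost without EPSCM replicate 1 (-0.88) or without ES replicate 3 (-0.68).

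**Figure D4:**
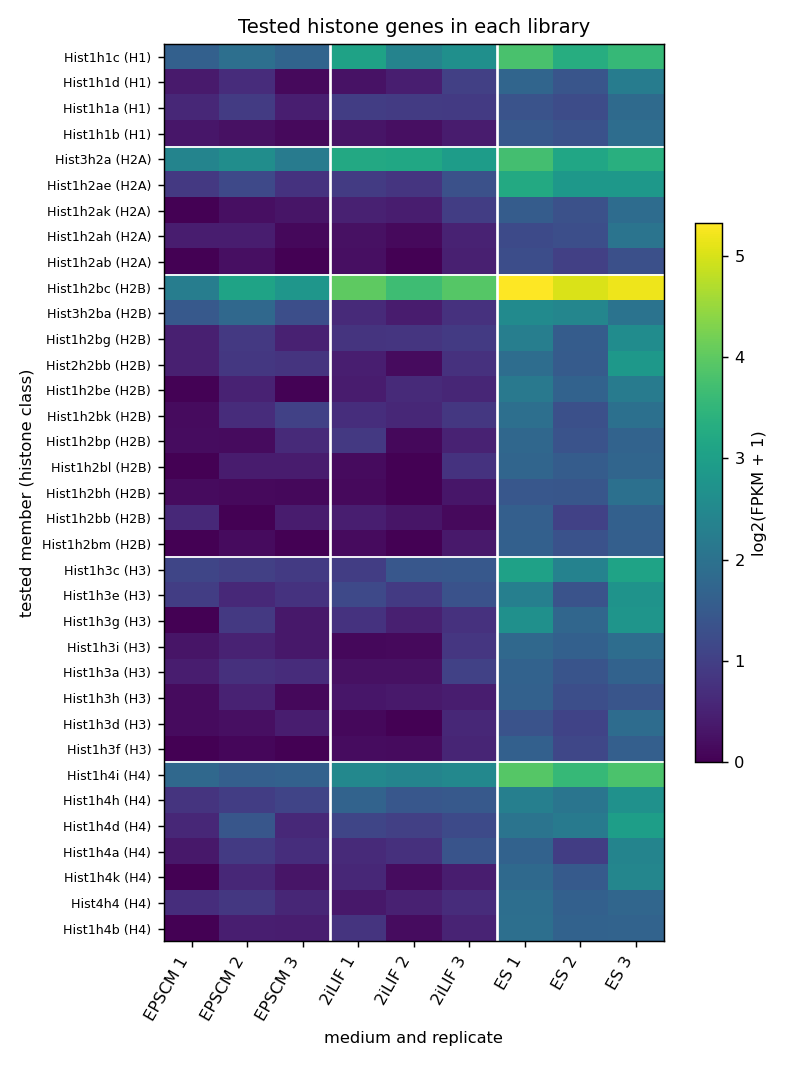
Level of each of the 35 tested members (rows, grouped by class, with the highest mean at the top of each class) in each library (columns, EPSCM, 2iLIF and ES, 3 replicates each), as colour on the log2(FPKM + 1) scale. Hist1h2bc is the brightest row, the ES columns are brighter than the others in nearly every row, and Hist3h2ba is darker in 2iLIF than in EPSCM.

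The 4 most abundant members, Hist1h2bc, Hist3h2a, Hist1h4i and Hist1h1c, held 46.3% ± 2.01 of the member FPKM in EPSCM, 59.0% ± 7.26 in 2iLIF and 40.1% ± 5.20 in ES (SD, n = 3 each). The other 65 members summed to 17.2 ± 4.38 FPKM in EPSCM, 22.3 ± 6.95 FPKM in 2iLIF and 105 ± 28.6 FPKM in ES (SD, n = 3 each). For these 65 genes the libraries were 13.6, 22.1 and 15.96 FPKM in EPSCM and 20.7, 16.3 and 29.9 FPKM in 2iLIF, which overlapped. The 4 abundant genes summed to 12.6, 17.5 and 14.0 FPKM in EPSCM and 35.3, 28.2 and 30.7 FPKM in 2iLIF, which did not overlap.

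Of the members kept out of the test by their low values, 34 in all, none had a mean over the 9 libraries above 0.877 FPKM. Together they summed to 3.03 ± 0.265 FPKM in EPSCM, 4.53 ± 1.28 FPKM in 2iLIF and 16.4 ± 4.80 FPKM in ES (SD, n = 3 each), so that EPSCM stood at 18.4% and 2iLIF at 27.6% of ES. Over all 69 members, 50 had every EPSCM library below every ES library and 0 the reverse, and 45 had every 2iLIF library below every ES library and 0 the reverse. Over the tested genes of the whole table, 2iLIF lay wholly below ES in 34% and wholly above it in 36.6%. The like count for 2iLIF over the 35 tested members was 33 below and 0 above. No such share was made for genes under the minimum, so the counts over 69 have no matching share. With no minimum and a pseudocount of 0.1, which keeps all 69 members in the test, 49 were called lower in EPSCM against ES, 14 of them among the 34. In that test 8.9% of all genes were called lower.

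Members were also grouped by the Hist number of the symbol, and not by position. The EPSCM sum was 15.7% of the ES sum for Hist1, 21.3% for Hist2, 43.9% for Hist3 and 26.3% for Hist4, which is a single H4 gene. The 2iLIF sum was 28.9%, 23.8%, 57.9% and 17.4% of the ES sum in the same order of groups. The Hist3 values rest on Hist3h2a and Hist3h2ba.

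Annotated transcript ends differed between members. The polyadenylation signal AATAAA lay in the last 50 bases of an annotated transcript of 15 members, among them Hist3h2a, Hist1h1c, Hist1h2ae and Hist3h2ba. Their summed FPKM in EPSCM was 27.0% of that in ES, against 15.3% for the 54 other members. In 2iLIF it was 41.7% of that in ES, against 27.1% for the others. Where the annotation ran more than 100 bases past the stem-loop, in 22 members, EPSCM stood at 21.9% of ES, against 15.96% for the 22 members with shorter ends. These are descriptions of chosen groups that a few abundant genes dominate, and no test was made.

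Members also share much of their sequence. In the median member, 49.7% of all 50-base stretches of its transcripts occurred in a transcript of another gene, and in 34 members more than 50% did. Fragments from such stretches can be credited to the wrong copy, so the level of a single member is less certain than a class sum. For the members that carry most of the signal, the shared part was 30.1% in Hist1h2bc, 31.5% in Hist3h2a, 28.9% in Hist1h4i, 8.54% in Hist1h1c and 22.1% in Hist3h2ba.

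Promoters of 61 members were found in RefSeq (GRCm38.p6), as 62 windows from 250 bases before to 50 bases after the start, and were searched on both strands. The octamer ATTTGCAT, a known element of H2B promoters, was in 7 of 17 H2A windows and 7 of 17 H2B windows and in no window of H1, H3 or H4, against 1.74% of all promoter windows. Some H2A and H2B genes are neighbours on opposite strands whose windows overlap, so the same match is counted in both classes. This holds for the octamer of Hist1h2ae and Hist1h2bg, of Hist1h2ah and Hist1h2bk, and of Hist1h2aa and Hist1h2ba. The CCAAT box was in all windows of H1, H2A, H2B and H3 but in 3 of 12 H4 windows (all promoters, 37.4%). The sequence TATAAA was in 35 of the 62 windows (all promoters, 13.6%), and AAACACA, a known element of H1 promoters, was in 5 of 6 H1 windows (all promoters, 7.18%). A match in these windows is a description of sequence and not a binding site.

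Promoter windows are shown for 3 members with different patterns across the media. Hist1h2ae (chr13:23571171-23571470, minus strand) was low in both EPSCM and 2iLIF, Hist3h2a (chr11:58954435-58954734, plus strand) was low in EPSCM, and Hist3h2ba (chr11:58948661-58948960, plus strand) was lowest in 2iLIF. Capitals mark the motifs just named, on either strand.
Hist1h2ae: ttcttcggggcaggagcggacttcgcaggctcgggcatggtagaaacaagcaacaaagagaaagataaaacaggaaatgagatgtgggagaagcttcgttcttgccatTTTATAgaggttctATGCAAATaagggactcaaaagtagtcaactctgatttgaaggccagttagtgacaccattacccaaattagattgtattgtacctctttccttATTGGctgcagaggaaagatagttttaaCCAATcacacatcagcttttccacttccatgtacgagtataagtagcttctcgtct
Hist3h2a: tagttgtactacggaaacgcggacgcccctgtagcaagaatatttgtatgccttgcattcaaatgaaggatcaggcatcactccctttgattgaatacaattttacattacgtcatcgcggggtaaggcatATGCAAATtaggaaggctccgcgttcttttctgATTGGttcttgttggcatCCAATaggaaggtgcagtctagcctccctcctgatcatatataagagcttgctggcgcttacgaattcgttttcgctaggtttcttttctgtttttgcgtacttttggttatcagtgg
Hist3h2ba: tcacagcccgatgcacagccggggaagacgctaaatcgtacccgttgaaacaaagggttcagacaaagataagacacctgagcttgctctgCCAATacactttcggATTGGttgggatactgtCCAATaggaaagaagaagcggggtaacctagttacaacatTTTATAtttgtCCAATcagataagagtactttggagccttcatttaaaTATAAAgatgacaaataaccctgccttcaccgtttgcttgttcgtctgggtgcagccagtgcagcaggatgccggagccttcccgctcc
The windows of Hist1h2ae and Hist3h2a held the octamer and that of Hist3h2ba did not. Among tested H2B genes with a promoter window, the log2 difference of EPSCM against ES ran between -1.82 and -1.08 for 6 members with the octamer. For 4 without it the difference ran between -1.48 and -0.82, so the ranges overlapped. Hist1h2bc, at -2.47, had no promoter window and is in neither range.

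Other RNAs that are made without a poly(A) tail were measured in the same libraries. Rpph1, the RNA of ribonuclease P, had 2.97, 5.46 and 2.86 FPKM in EPSCM, 1.74, 0.729 and 7.68 FPKM in 2iLIF and 19.2, 15.3 and 29.9 FPKM in ES. Terc, the RNA of telomerase, had 0.849, 0.806 and 0.519 FPKM in EPSCM, 0.550, 0.564 and 0.513 FPKM in 2iLIF and 3.48, 2.91 and 3.38 FPKM in ES. Like the histone genes, both were higher in every ES library than in any other library. Rpph1 was at 17.5% and Terc at 22.2% of the ES mean in EPSCM, beside 18.3% for the histone sum. They fell by 2.23 ± 0.53 and 1.31 ± 0.09 in EPSCM against ES (limma adjusted p = 0.00442 and 1.28e-06). In 2iLIF against ES they fell by 2.65 ± 0.53 and 1.46 ± 0.09 (limma adjusted p = 0.00193 and 7.89e-07).

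Of the other such RNAs, Rmrp, the RNA of ribonuclease MRP, stood at 100.5 FPKM in ES replicate 3 and 55.8 FPKM in 2iLIF replicate 3, and between 4.65 and 13.1 FPKM in the remaining libraries. The same libraries had the highest histone sum of their medium. The 115 genes of small nucleolar and Cajal body RNAs summed to 466 ± 160 FPKM in EPSCM, 713 ± 131 FPKM in 2iLIF and 1052 ± 426 FPKM in ES (SD, n = 3 each). Malat1, a nuclear RNA whose end is cut and not tailed, did not follow them, with 44.9 ± 2.65 FPKM in EPSCM, 80.3 ± 6.10 FPKM in 2iLIF and 38.1 ± 5.44 FPKM in ES (SD, n = 3 each). The part of these RNAs in the histone values was not tested. Without ES replicate 3 and 2iLIF replicate 3, 27 members were called lower in EPSCM against ES, 26 in 2iLIF against ES and 1 in EPSCM against 2iLIF. The shares of all tested genes called lower were then 8%, 7.19% and 6.08%. These libraries were chosen after seeing the data.

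**Figure D5:**
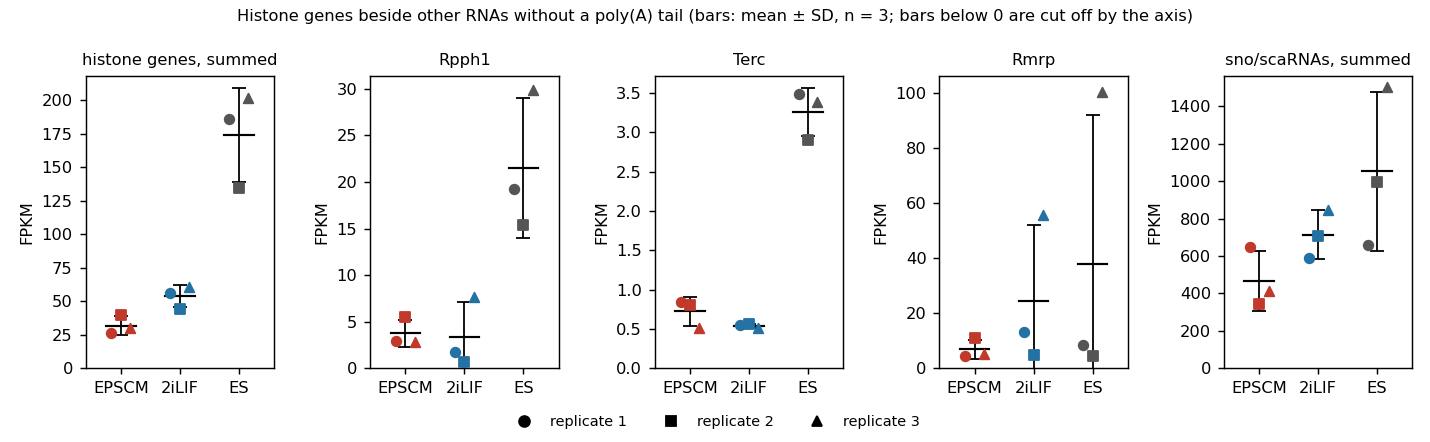
FPKM (vertical axes, linear, from 0) of the 69 histone genes summed, of Rpph1, Terc and Rmrp, and of 115 small nucleolar and Cajal body RNA genes summed, in EPSCM, 2iLIF and ES medium; points are libraries and bars give the mean and SD of 3 libraries. Rpph1 and Terc, like the histone sum, lie highest in all 3 ES libraries, whereas Rmrp is high in replicate 3 of ES and of 2iLIF.

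The genes around the histone pathway were read from lists chosen by function. Of 20 tested genes of histone pre-mRNA end processing, 3 were called lower in EPSCM against ES and 0 higher, and 0 were called in 2iLIF against ES, where 12 were lower and 1 higher at an unadjusted p under 0.05, as were 33.6% and 36.3% of all tested genes. Those lower were Zfp473 (-1.64 ± 0.08), whose human counterpart binds the U7 particle that cuts histone pre-mRNA, Srrt (-1.51 ± 0.08), a cap-binding complex partner needed for that cut, and Snrpe (-1.09 ± 0.11), a core Sm protein (limma adjusted p = 2e-07, 3.02e-07 and 2.47e-05). The stem-loop binding protein gene Slbp had 74.6, 49.5 and 71.7 FPKM in EPSCM, 48.0, 62.8 and 65.2 FPKM in 2iLIF and 50.5, 69.9 and 68.5 FPKM in ES. Its media overlapped, with a log2 difference of 0.04 ± 0.19 in EPSCM against ES (limma adjusted p = 0.848). The U7 subunit genes Lsm10 and Lsm11 had differences of -0.48 ± 0.10 and 0.59 ± 0.07 in EPSCM against ES, and Casp8ap2, whose product FLASH acts in the same step, had 0.20 ± 0.22, none of them called.

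Of 18 genes of histone gene transcription, 2 were called lower and 1 higher in EPSCM against ES. Ccne1 encodes cyclin E1, the partner of the kinase that activates the histone gene regulator NPAT, and averaged 42.4 ± 1.68 FPKM in EPSCM, 36.7 ± 1.56 FPKM in 2iLIF and 165 ± 5.26 FPKM in ES (SD, n = 3 each). It fell by 1.94 ± 0.05 in EPSCM against ES and by 2.14 ± 0.05 in 2iLIF against ES (limma adjusted p = 1.4e-08 and 6.21e-09). E2f2 fell by 1.27 ± 0.07 and E2f1 rose by 1.07 ± 0.09 in EPSCM against ES (limma adjusted p = 3.58e-07 and 5.9e-06). Npat itself averaged 13.3 ± 2.85 FPKM in EPSCM, 10.5 ± 1.60 FPKM in 2iLIF and 7.66 ± 1.45 FPKM in ES (SD, n = 3 each), with a difference of 0.72 ± 0.18 that was not called.

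None of 41 genes of DNA replication was called by limma in EPSCM against ES or in 2iLIF against ES. At an unadjusted p under 0.05, whatever the size, 17 were lower and 8 higher in EPSCM against ES, where 32.4% of all tested genes were lower and 42.5% higher. In 2iLIF against ES 17 were lower and 5 higher, where 33.6% of all tested genes were lower and 36.3% higher. The replication clamp gene Pcna averaged 267 ± 15.0 FPKM in EPSCM, 386 ± 19.3 FPKM in 2iLIF and 378 ± 41.6 FPKM in ES, and the proliferation marker Mki67 averaged 36.2 ± 6.56, 32.3 ± 4.51 and 31.6 ± 4.52 FPKM in the same order (SD, n = 3 each). Of 17 cyclins and inhibitors of G1 and S phase, 5 were called lower and 3 higher in EPSCM against ES, and 3 lower and 2 higher in 2iLIF against ES. The largest were Ccnd2 (-3.84 ± 0.05) and Cdkn1c (-3.66 ± 0.10), a D-type cyclin and a kinase inhibitor, and the inhibitor gene Cdkn2a (3.31 ± 0.14), all in EPSCM against ES (limma adjusted p = 4.04e-10, 1.09e-08 and 8.73e-08).

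Of 25 histone chaperone genes, 2 were called lower in EPSCM against ES, Nasp (-1.24 ± 0.12), which guards H3 and H4, and the import receptor gene Ipo4 (-1.37 ± 0.10), with limma adjusted p = 1.44e-05 and 2.26e-06. Of 9 genes of histone mRNA decay, Smg1, a kinase of the decay factor UPF1, was called higher in EPSCM against ES (1.52 ± 0.13, limma adjusted p = 6.46e-06). In the same comparison the exonuclease gene Eri1 had a difference of -0.30 ± 0.14 and Upf1 one of 0.39 ± 0.08, neither called.

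Variant histone genes, whose RNAs mostly carry poly(A) tails, were far more abundant in these libraries. The 15 in the table summed to 2087 ± 171 FPKM in EPSCM, 2306 ± 162 FPKM in 2iLIF and 3204 ± 220 FPKM in ES (SD, n = 3 each), so that the replication-dependent members stood at 1.52%, 2.33% and 5.44% of the variant sum. Of 11 tested variants, 2 were called lower in EPSCM against ES, H2afz (-1.53 ± 0.05) and H1f0 (-2.10 ± 0.08), with limma adjusted p = 4.79e-08 and 8.21e-08. H2afx, known to give both stem-loop and polyadenylated RNA, had a difference of -0.74 ± 0.08 and was not called.

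Within a medium the libraries differed in how often they held the highest or lowest value of a member. In EPSCM, replicates 1 to 3 were highest for 11, 37 and 12 of the 69 members and lowest for 24, 9 and 18. In 2iLIF they were highest for 19, 5 and 36 members and lowest for 15, 32 and 7, and in ES they were highest for 21, 8 and 40 and lowest for 15, 45 and 6. Ties, all of them at 0, were not counted. For the 33 members with an ES mean of 1 to 5 FPKM, the median coefficient of variation over the ES libraries was 30.8%, against 11.2% for 3260 other genes in that range.

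Library sums ranged from 546636 to 600728 FPKM, with 11155 to 11764 genes at 1 FPKM or more. All 10 embryonic stem cell markers averaged at least 47.0 FPKM over the 9 libraries. The sums of 8 fibroblast markers ran from 10.9 to 13.7 FPKM in EPSCM, 3.75 to 4.18 FPKM in 2iLIF and 15.0 to 17.6 FPKM in ES, with Col1a1, Col1a2, Col3a1, Dcn, Lum and Postn under 1 FPKM in every medium. The sums of 7 trophoblast markers ran from 41.6 to 48.1 FPKM in EPSCM, 27.5 to 30.9 FPKM in 2iLIF and 19.2 to 21.8 FPKM in ES, with Elf5, Gata3, Krt7 and Hand1 under 1 FPKM. Of 6 primitive endoderm markers, whose sums ran from 9.76 to 10.5, 2.93 to 3.36 and 3.01 to 3.56 FPKM in the same order, Sox17 and Foxa2 were under 1 FPKM, as were Pax6 and Neurog1 of 5 neural markers (25.5 to 29.3, 21.1 to 24.6 and 64.7 to 72.5 FPKM). The part of these markers in the histone values was not tested. Libraries 16, 18 and 19 (ES replicate 1, 2iLIF replicate 1 and EPSCM replicate 2) had the highest library sum of their medium, at 600728, 580663 and 584495 FPKM. Without them 31 members were called lower in EPSCM against ES, 1 in EPSCM against 2iLIF and 24 in 2iLIF against ES. The shares of all tested genes called lower were then 7.88%, 5.92% and 7.13%.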

How the data were processed

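RNA of E14 mouse embryonic stem cells in EPSCM, 2iLIF and ES medium (3 libraries each) was purified on columns with DNase digestion, and a stranded kit for messenger RNA made the libraries, per the labels' protocols. The authors deposited FPKM values, 1 per gene and library, made with STAR and Cuffnorm against mm9, per the submitters' processing notes; for versions, annotation and fragments shared between copies, nothing is given in these sources. Depth is unknown: low FPKM times GRCm38 transcript length did not resolve into whole steps (33.8% to 41.1% of values lay within 0.15 of a whole number), so no counting error is given. A listed 0 can be a failed estimate, and 8 genes with a median of at least 10 FPKM, all small RNAs, are listed at 0 in some library.

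Genes that reached 1 FPKM in 3 or more of the 9 libraries (12330 of 24819) were tested with limma 3.58.1 in R 4.3.3 on log2(FPKM + 1), with a trend in the variance prior, two-sided contrasts of the medium means over all 9 libraries, and Benjamini-Hochberg adjustment over all tested genes. Genes were called where the adjusted p was under 0.05 and the log2 difference reached 1 in either direction. The script was tested on simulated data. Replicates are numbered in accession order and are not paired. The members and lists were chosen with earlier results of these data known. Named members are the 4 tested with the highest mean per class, the 4 largest called differences per comparison, those not called in EPSCM against ES, and testis-specific genes. Sequences came from GENCODE and RefSeq (GRCm38) by symbol and 68 members matched RefSeq. No coordinates were converted.

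Alternatives were a pseudocount of 0.1, other filters, scalings, variance priors, weights, covariates and the call without a size limit, and leaving out libraries. Sums got no test. Python 3.11.15, pandas 2.3.3 and matplotlib 3.10.9 were used.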

Additional observations from a re-analysis of the deposited data

How the results depend on the processing

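Against ES none of the 35 tested members changed direction under any alternative. In EPSCM against ES, 20 members were called lower with a minimum mean of 1 FPKM (22 members tested, 7.92% of all genes tested). There were 49 with a pseudocount of 0.1 and no minimum (69 tested, 8.9% of all), and 27 to 33 when 1 library was left out (7.78% to 8.08%). In 2iLIF against ES the counts were 16, 41 and 24 to 31 (6.88%, 10.5% and 7.12% to 7.37% of all genes tested). In EPSCM against 2iLIF the count of 1 lower was 5 with a pseudocount of 0.1 (8.61% of all genes tested) and 6 with that and no minimum (7.29%). The count was 2 with quantile normalization (7.32%), with median-ratio scaling (7.07%) or with library numbers of at least 10 as covariate (6.1%). Without a size limit it was 6 (31.4%), and it was 0 to 2 when 1 library was left out (5.9% to 6.08%). The count of 0 higher was 1 (Hist3h2ba) with a pseudocount of 0.1 (14.4% of all genes tested), with that and no minimum (14.1%), and without a size limit (36.6%). It was 0 to 1 when 1 library was left out (9.94% to 10.4%). The causes were not tested. Without Hist1h2bc the summed FPKM was 40.1 in 2iLIF and 138.6 in ES. With quantile normalization the median difference of all genes in EPSCM against ES was 0.01. No paired analysis was possible because the labels give no shared replicate numbers. Low values rest on few fragments at unknown depth, and near-identical copies share fragments.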

Other observations

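Members known as testis-specific were low, at no more than 0.456 FPKM in any library. The spermatocyte linker histone gene Hist1h1t was listed at 0 in EPSCM replicates 1 and 2 and in all 2iLIF libraries, with 0.0568 FPKM in EPSCM replicate 3 and 0.343, 0.0548 and 0.456 FPKM in ES. Hist1h2ba, the testis H2B gene, was listed at 0 in all EPSCM libraries, against 0.118 FPKM in 1 2iLIF library and 0.151 and 0.149 FPKM in ES replicates 1 and 3. Hist1h2aa, the testis H2A gene, was listed at 0 everywhere except ES replicate 1, with 0.125 FPKM. In all 3 libraries of the medium, 9 members were listed at 0 in EPSCM, 9 in 2iLIF and 0 in ES.

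Hist1h2bq, chosen after its values were seen, ranged from 2.13e-08 to 1.88e-07 FPKM in EPSCM, 4.26e-08 to 1.27e-07 FPKM in 2iLIF and 3.44e-08 to 0.0269 FPKM in ES. In its longest annotated transcript, 97.3% of the 50-base stretches occurred in other genes. These values therefore cannot be read as sure levels of this copy.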
